A study of Mus musculus with 12 samples.

Results

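The transcriptome of the normal mouse morula was described from the 4 arrays of untreated embryos made by in vitro fertilisation (IVF), out of 12 arrays in the study, each hybridised with amplified RNA of 1 whole embryo. The 4 embryos were chosen by their labels alone, and no measured value entered the choice. Embryos 1 and 3 were male and embryos 2 and 4 female, all of the (C57BL/6 x DBA/2) F1 strain, and all were cultured in the medium KSOM for 72 h after activation. The other 8 embryos, used here only for comparison, were male clones made from nuclei of Sertoli cells, the supporting cells of the testis, and carried the same strain label. Of these, 4 had been injected with a control siRNA (siCont clones) and 4 with an siRNA against Xist (siXist clones) 6 to 7 h after activation. The labels name neither the parents nor the culture drop of an embryo, so p-values measure the spread between these embryos alone.

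The morula is the ball of blastomeres that has finished activating its own genome and flattens its cells against one another, a step called compaction. Its outer cells begin to take the trophectoderm fate, which forms the placenta, while inner cells keep pluripotency and later give rise to the epiblast and the primitive endoderm. Cdx2 and Tead4 drive the outer fate, Pou5f1, Sox2 and Nanog hold the inner one, and Gata6 later marks the primitive endoderm. A whole embryo mixes these cells, so fewer cells of a kind and less RNA per cell cannot be told apart in the values below.

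Between 56.1% and 61.1% of the 41174 probes were well above background on the IVF arrays, against 50.8% to 61.5% over all 12 arrays, and the 75th percentile of the signal was 638 to 839 on the IVF arrays. Xist, the RNA that coats the inactive X chromosome, had a level of 5.17 and 5.24 in female embryos 2 and 4 and -4.92 in male embryo 1, and it was not well above background in male embryo 3. Its level was 4.56 to 5.65 in siCont clones and 1.36 to 2.45 in siXist clones, the group in which it was targeted. The Y-linked genes Eif2s3y and Ddx3y were well above background in the male IVF embryos and in neither female embryo. Each of the 3 classes of embryo was hybridised on its own slide and scanned on its own, so embryo class and slide cannot be told apart. With 4 arrays a class, their number sets how precise each value can be.

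A level is the log2 processed signal minus the 75th percentile of its array, so that 0 is the signal of a probe at that percentile and a step of 1 is a doubling. A probe was detected when the scanner software marked it as well above background, and a gene counts as detected in as many embryos as its most often detected probe. Its level is that of its probe with the highest mean over the 4 IVF arrays. Of 17648 autosomal genes with a probe, 10922 (61.9%) were detected in all 4 embryos, 3340 (18.9%) in 1 to 3 embryos and 3386 (19.2%) in none. The median level was 1.04 for genes detected in all 4 embryos and -5.78 for those detected in some. In 93 of the genes detected in some embryos, every array with a value was above background and the others had been left out as outlier spots.

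**Figure D1:**
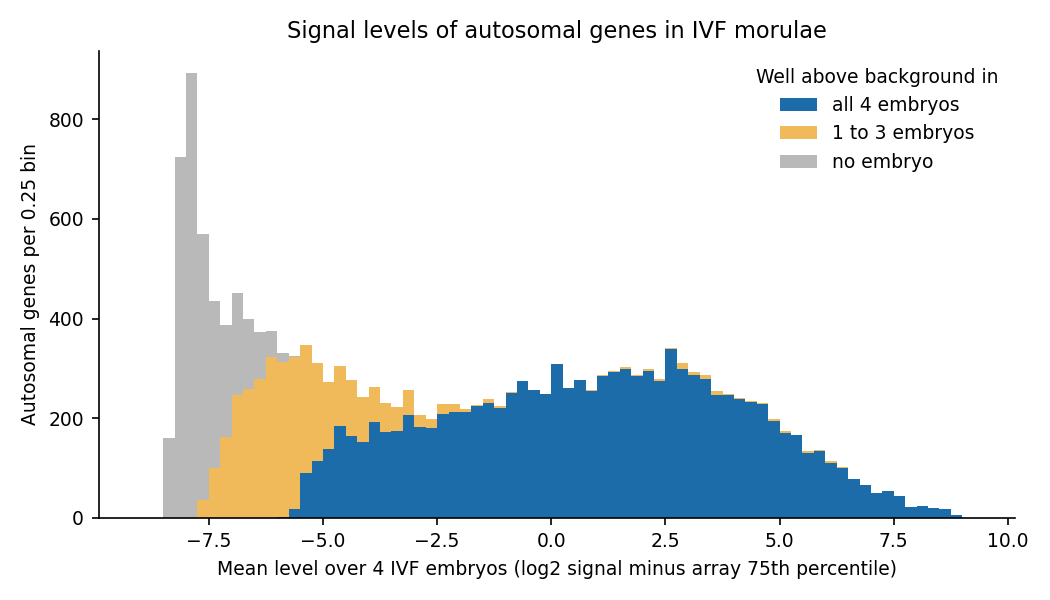
Number of autosomal genes in bins of 0.25 of the mean level over the 4 IVF embryos (log2 signal minus the array's 75th percentile), stacked by the number of embryos in which the gene was well above background. Genes detected in all 4 embryos spread from -5.8 to 8.82, and genes detected in no embryo lie at the low end.

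The clones showed much the same set of detected genes. Of the genes detected in all 4 IVF embryos, 9903 (90.7%) were also detected in all 4 siCont clones and 10211 (93.5%) in all 4 siXist clones. Just 5 genes, Gml2, Krt27, Slc25a21, Xdh and Cdh22, were detected in all 4 IVF embryos and in none of the 8 clones, and 10 genes showed the reverse. Cdh22 lay between -5.77 and -5.61 in the IVF embryos, near the lowest signal well above background. A level ranks probe signals and not numbers of transcripts, because probes of 1 gene disagreed. Of 4680 detected genes with more than 1 probe, 4009 (85.7%) had a gap above 1 between their brightest and dimmest probe, with a median gap of 3.73.

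Families of other tissues gave a scale for weak signals. Olfactory receptor genes, used by sensory neurons of the nose, were detected in all 4 embryos for 137 of 887 members (15.4%), with a median level of -7.22 and a highest level of 0.54 for Olfr571. Vomeronasal receptors were detected for 14 of 130 (10.8%) and Hox genes, which pattern the body axis, for 5 of 36 (13.9%), with a highest Hox level of -2.14 for Hoxb9. Of 40 hair keratin-associated genes (Krtap) 11 (27.5%) were detected, with Krtap4-6 as high as 5.55, and of 36 genes with interleukin symbols (Il) 11 (30.6%). By contrast all 78 mitochondrial ribosomal protein genes, all 12 Snrp genes of the spliceosome and 25 of 26 genes of the Polr family of RNA polymerase subunits were detected in all 4 embryos. The lowest signal well above background lay between -6.31 and -5.68 on the IVF arrays, and detection near it was seen in families with no known role in a morula. These families were picked after their values had been seen.

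Promoters of the detected genes were read from RefSeq windows of GRCm38.p6 that hold 250 bases before and 50 after a gene's start. A window counted as CpG-dense when at least 50% of its bases were G or C and the observed number of CG pairs was at least 0.6 of that expected from its base content. Of the windows of genes detected in all 4 embryos, 64.8% were CpG-dense, against 33.5% of all 32851 windows. Counted by gene, 71.5% of the 8783 detected genes with a window (80.4% of all detected) had a CpG-dense one, against 55.8% of the 14012 autosomal genes with a window. When the detected genes were split into 5 equal classes (quintiles) by level, the share was 67.2% in the second, 76.5% in the third, 81.9% in the fourth and 84.1% in the brightest quintile. For the dimmest quintile, and for genes detected in some or no embryo, under 80% of genes had a window, and their shares are not compared here. The same limit touches the 55.8%, as 79.4% of autosomal genes had a window. The sequences below are the 250 bases before the start of 5 genes that stand for the ends of this range, written 5′ to 3′ on the gene's strand in lower case with each CG pair in capitals. Rps2 is among the brightest genes, Cand1 among the most even between embryos, Isl1 was higher in IVF embryos than in clones, Zfp42 is a pluripotency gene, and Khdc3 is a bright maternal-effect gene.
Rps2: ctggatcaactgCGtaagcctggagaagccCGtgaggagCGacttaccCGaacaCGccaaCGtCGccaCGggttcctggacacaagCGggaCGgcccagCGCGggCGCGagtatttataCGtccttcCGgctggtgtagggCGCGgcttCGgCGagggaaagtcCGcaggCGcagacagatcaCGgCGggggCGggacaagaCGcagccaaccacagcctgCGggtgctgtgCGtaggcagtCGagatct
Cand1: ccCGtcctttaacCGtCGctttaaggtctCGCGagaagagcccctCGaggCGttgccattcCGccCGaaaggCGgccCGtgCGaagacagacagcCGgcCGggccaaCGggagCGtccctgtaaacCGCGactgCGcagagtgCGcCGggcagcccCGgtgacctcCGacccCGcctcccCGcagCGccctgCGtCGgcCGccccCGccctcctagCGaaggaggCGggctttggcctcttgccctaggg
Isl1: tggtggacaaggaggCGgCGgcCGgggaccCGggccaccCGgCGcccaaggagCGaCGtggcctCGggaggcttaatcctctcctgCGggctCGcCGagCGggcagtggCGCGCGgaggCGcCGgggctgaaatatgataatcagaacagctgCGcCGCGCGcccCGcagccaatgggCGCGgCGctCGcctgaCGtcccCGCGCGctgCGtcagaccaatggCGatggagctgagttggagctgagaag
Zfp42: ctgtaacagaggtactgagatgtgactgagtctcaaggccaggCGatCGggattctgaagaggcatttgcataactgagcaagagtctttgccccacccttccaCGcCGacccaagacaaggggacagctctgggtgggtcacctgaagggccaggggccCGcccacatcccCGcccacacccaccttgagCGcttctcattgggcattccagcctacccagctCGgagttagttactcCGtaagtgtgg
Khdc3: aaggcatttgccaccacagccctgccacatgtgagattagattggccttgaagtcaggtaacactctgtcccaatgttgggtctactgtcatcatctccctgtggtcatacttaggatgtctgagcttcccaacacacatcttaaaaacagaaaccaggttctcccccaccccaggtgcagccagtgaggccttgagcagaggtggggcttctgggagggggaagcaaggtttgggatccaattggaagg
They lie at chr17:24719813-24720062 (plus strand) for Rps2, chr10:119240056-119240305 (minus) for Cand1, chr13:116309689-116309938 (minus) for Isl1, chr8:43307010-43307259 (minus) for Zfp42 and chr9:73102148-73102397 (plus) for Khdc3. The runs held 29, 32, 33, 9 and 0 CG pairs. Khdc3, with none, had a level of 8.03 and rank 64 of the autosomal genes, and Isl1, with the most, had a level of -0.95. A bright signal was thus seen with a CG-free window and a dim signal with a CG-rich one.

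The brightest probes belonged to genes of protein synthesis. Ribosomal protein genes made up 32 of the 100 brightest autosomal genes, and 76 of the 77 with a probe were detected in all 4 embryos, with a median level of 7.35 against -2.20 over all autosomal genes. The 20 brightest genes were Rpl23a, Fbxo15, Rps2, Nme2, Gm10653, Rps16, Dppa5a, Ybx1, Rps18, Rplp0, Rpl15, Rpl6, Odc1, Ptma, Hsp90aa1, Rpl5, Rpl7a, Rplp2, Snx5 and Rps3. Beside 11 ribosomal proteins they held Nme2, a nucleoside diphosphate kinase, Ybx1, an RNA-binding protein, Odc1, the first enzyme of polyamine synthesis, and Hsp90aa1, a cytosolic chaperone. Gm10653 is annotated as a pseudogene, so its probe may share sequence with its parent gene and its signal is uncertain.

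Rpl23a, the brightest, had levels of 8.79, 9.04, 8.68 and 8.78 in embryos 1 to 4. Dppa5a, a small RNA-binding protein of pluripotent cells, had 8.74, 9.03, 8.47 and 8.65, and Fbxo15, an F-box protein used as a reporter of pluripotency, had 8.78, 8.97, 8.62 and 8.84. Embryo 2 was highest and embryo 3 lowest for all 3 genes. The same order held across the top 100, where embryo 2 was highest for 87 genes and embryo 3 lowest for 74. The highest level that any probe reached was 9.08 on the array of embryo 2 and 8.68 on that of embryo 3. The levels of ranks 1 and 100 were 8.82 and 7.67, a narrow step beside the range of the rest. No spot was saturated on any array. With the mean of all probes of a gene in place of the brightest, 64 of the 100 genes remained. The siCont clones shared 86 and the siXist clones 82 of these 100 genes.

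Other core machinery was close behind. All 26 translation factors were detected in all 4 embryos (median level 6.77), led by Eif1 at 8.37 and Eef1a1, the elongation factor that brings transfer RNA to the ribosome, at 8.25. All 22 chaperones were detected (median 6.50), led by Hsp90aa1 at 8.60 and Hspa8 at 8.37. Of the proteasome genes 36 of 38 were detected (median 5.60), with Psmb4 at 7.88 and Psma7 at 7.85, while the testis subunit Psma8 and the immunoproteasome subunit Psmb8 were above background in 3 and 1 of the 4 embryos. Respiratory chain genes were detected for 76 of 79 (median 4.91), led by Atp5a1 at 8.02 and Atp5g3 at 8.01, subunits of ATP synthase. The isoforms known from muscle and testis, Cox6a2 and Cox7b2, were above background in 2 and 1 of the 4 embryos, and the third, Uqcrb, had an outlier spot in embryo 1.

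Cell cycle genes were detected in all 4 embryos for 26 of 32. Cdc20, an activator of the anaphase-promoting complex, had 7.70, 7.4, 7.21 and 7.5 in embryos 1 to 4, and cyclin E1 (Ccne1) had 7.38, 7.66, 7.24 and 7.41. Both were bright in every embryo. Cyclin B1 (Ccnb1) had a mean level of 6.86 and the replication licensing genes Mcm4 and Mcm6 had 6.74 and 6.88. In contrast Ccnd2 was above background in 1 embryo and the inhibitor Cdkn2a in none, and Cdk6 and the inhibitor Cdkn1b were above background in 3.

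**Figure D2:**
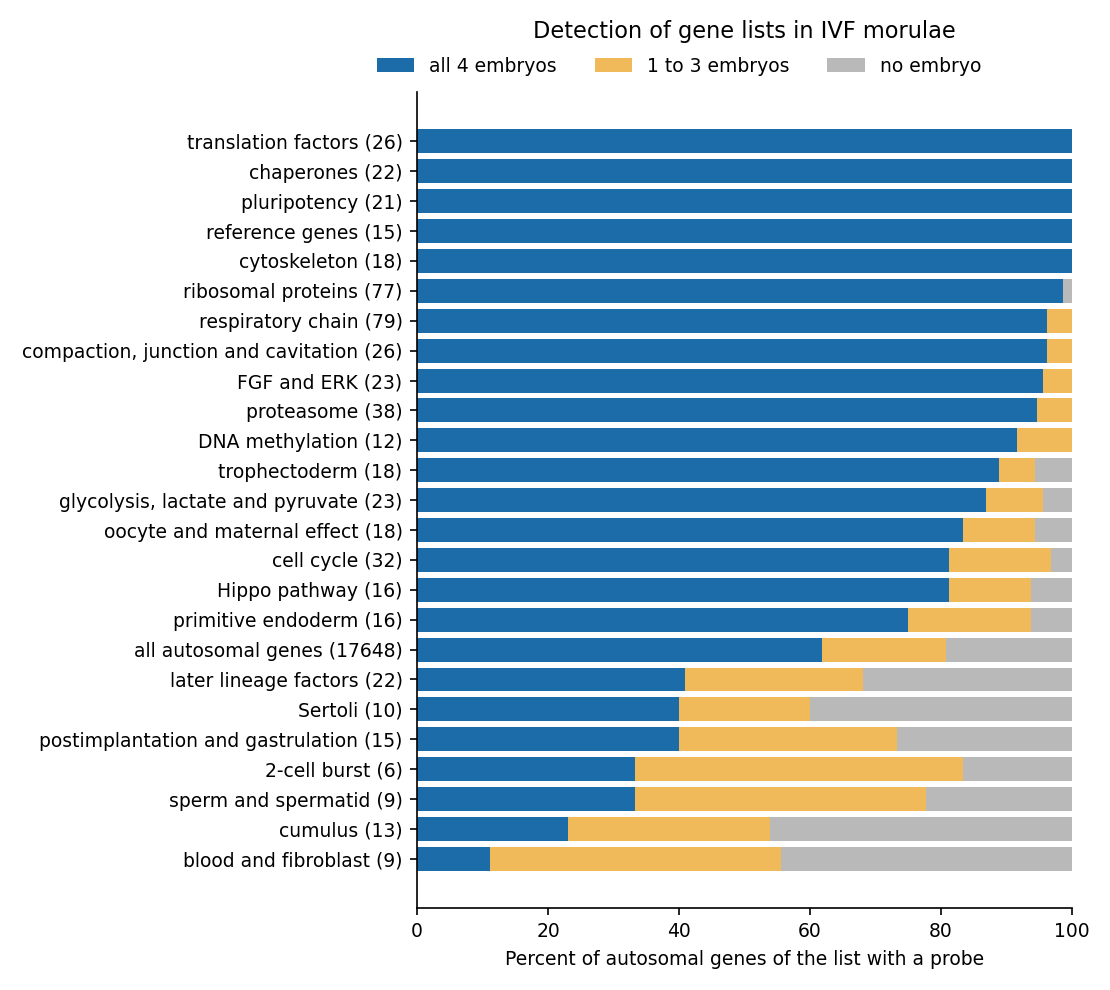
Share of the autosomal genes of each list (number with a probe in parentheses) that were well above background in all 4, in 1 to 3 or in none of the IVF embryos. Translation factors, chaperones, pluripotency genes, reference genes and cytoskeleton genes are at 100%, and markers of blood and fibroblasts are lowest.

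Every pluripotency gene on an autosome with a probe, 21 of 21, was detected in all 4 embryos, against 61.9% of all autosomal genes, and the median level was 4.70. Nanog, Prdm14 and L1td1 had no named probe here and were not analysed. The brightest after Fbxo15 and Dppa5a was Dppa3, a maternal factor that protects DNA methylation in the zygote, at 8.14, 8.24, 7.80 and 7.97 in embryos 1 to 4. Tfcp2l1, a transcription factor of naive pluripotency, had 6.87, 7.44, 6.99 and 6.79. Pou5f1 (Oct4), the central regulator of pluripotency, had 5.28, 5.02, 4.92 and 5.25 and ranked 1132. These 3 genes varied by less than 1 between the highest and the lowest embryo. Klf2 averaged 6.09 ± 0.26 (SD, n = 4), Zfp42 (Rex1) 6.05 ± 0.12, Nr5a2 5.98 ± 0.36 and Sall4 4.84 ± 0.23. In the middle of the list were Tbx3 at 4.70 ± 0.56, Dppa4 at 3.75 ± 0.18, Klf4 at 3.66 ± 0.62, Esrrb, an orphan receptor that sustains self-renewal, at 2.53 ± 0.49, and the RNA-binding Lin28a at 2.17 ± 0.38. All of these were above background in every embryo.

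Sox2 was different. It had -0.78, 1.49, 0.09 and -1.43 in embryos 1 to 4 (mean -0.16 ± 1.26) and ranked 6854, so embryo 2 was the highest and embryo 4 the lowest. Klf5, a zinc finger factor needed for the blastocyst lineages, had 6.15, 3.80, 5.28 and 6.22, with embryo 2 the lowest. Tdgf1, a co-receptor of Nodal, had 2.05, 0.87, 0.69 and 3.19, and embryo 4 was the highest. At the low end lay Klf17, with -3.26, -1.63, -2.38 and -0.38, and Utf1, with -1.86, -3.24, -1.80 and -1.85. Gdf3 averaged 0.55 ± 0.73 and Tcl1 -0.93 ± 0.39. The orders of the embryos differed from gene to gene. The X-linked Nr0b1 (Dax1) was above background in embryo 4 alone.

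Trophectoderm genes were detected in all 4 embryos for 16 of 18 autosomal members (median level 3.37). Cdx2, the homeobox factor that specifies the lineage, had 4.37, 4.90, 5.13 and 4.48 in embryos 1 to 4. Tead4, the DNA-binding partner of YAP that acts upstream of it, had 4.17, 3.47, 3.57 and 4.25. Tfap2c, an AP-2 factor active in the outer cells, had 5.94, 6.55, 5.91 and 5.50. All 3 were clearly above background in every embryo. Gata3 averaged 4.15 ± 0.49 (SD, n = 4) and Hand1, a factor of giant cells, 4.51 ± 0.63. Genes of the epithelium were also on, with the keratins Krt8 at 5.82 ± 0.65 and Krt18 at 4.30 ± 0.49, the water channel Aqp3 at 5.51 ± 0.21 and the sodium pump subunit Atp1b1 at 3.61 ± 0.44.

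Other trophectoderm genes were weak or uneven. Eomes, needed for trophoblast stem cells, had -0.45, -1.48, -1.13 and -1.69 and ranked 7894. Elf5, a factor of the later trophoblast stem cell state, was above background in the female embryos 2 and 4 at -2.35 and -2.46, and in neither male embryo. Gata2 was above background in none. Id2, an inhibitor of basic helix-loop-helix factors, had 3.02, 3.42, 2.60 and -0.41, and Krt7 had 0.99, 0.20, 0.62 and -2.58. Embryo 4 was the lowest for both. Ascl2, known from the ectoplacental cone, lay at -4.0, and Tfap2a and Krt19 averaged -2.25 ± 1.02 and -3.27 ± 1.31.

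Primitive endoderm genes were split. In all, 12 of 16 were detected in all 4 embryos, with a median level of -0.58. Gata6, the earliest factor of the lineage, had 6.99, 7.27, 6.96 and 7.07 in embryos 1 to 4 and ranked 220, although the dimmest of its 3 probes averaged -7.86. Dab2, an endocytic adaptor, had 6.31, 6.67, 6.44 and 5.79, and Lrp2 (megalin), a receptor of the visceral endoderm, had 5.69, 5.63, 4.87 and 3.23. Lrp2 was lowest in embryo 4 and Dab2 too. Pdgfra had 2.33, 3.66, 1.04 and 0.79, Cubn averaged 2.93 ± 0.26 and Col4a1 2.94 ± 0.05. The laminin chain Lamb1 averaged 2.93 ± 0.55, Amn, the partner of cubilin, -0.31 ± 0.70, and Sparc -1.87 ± 1.06. These basement membrane and endoderm genes were detected in every embryo. Sox17, which follows Gata6 in the lineage, was above background in embryos 1, 2 and 3 at -0.28, 2.16 and 1.12 and not in embryo 4. Sox7 and Lama1 were above background in 2 embryos each and Foxa2 in none. Gata4 and Hnf4a, other late members, were at -5.10 ± 0.20 and -4.09 ± 0.43, near the lowest detectable signal.

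**Figure D3:**
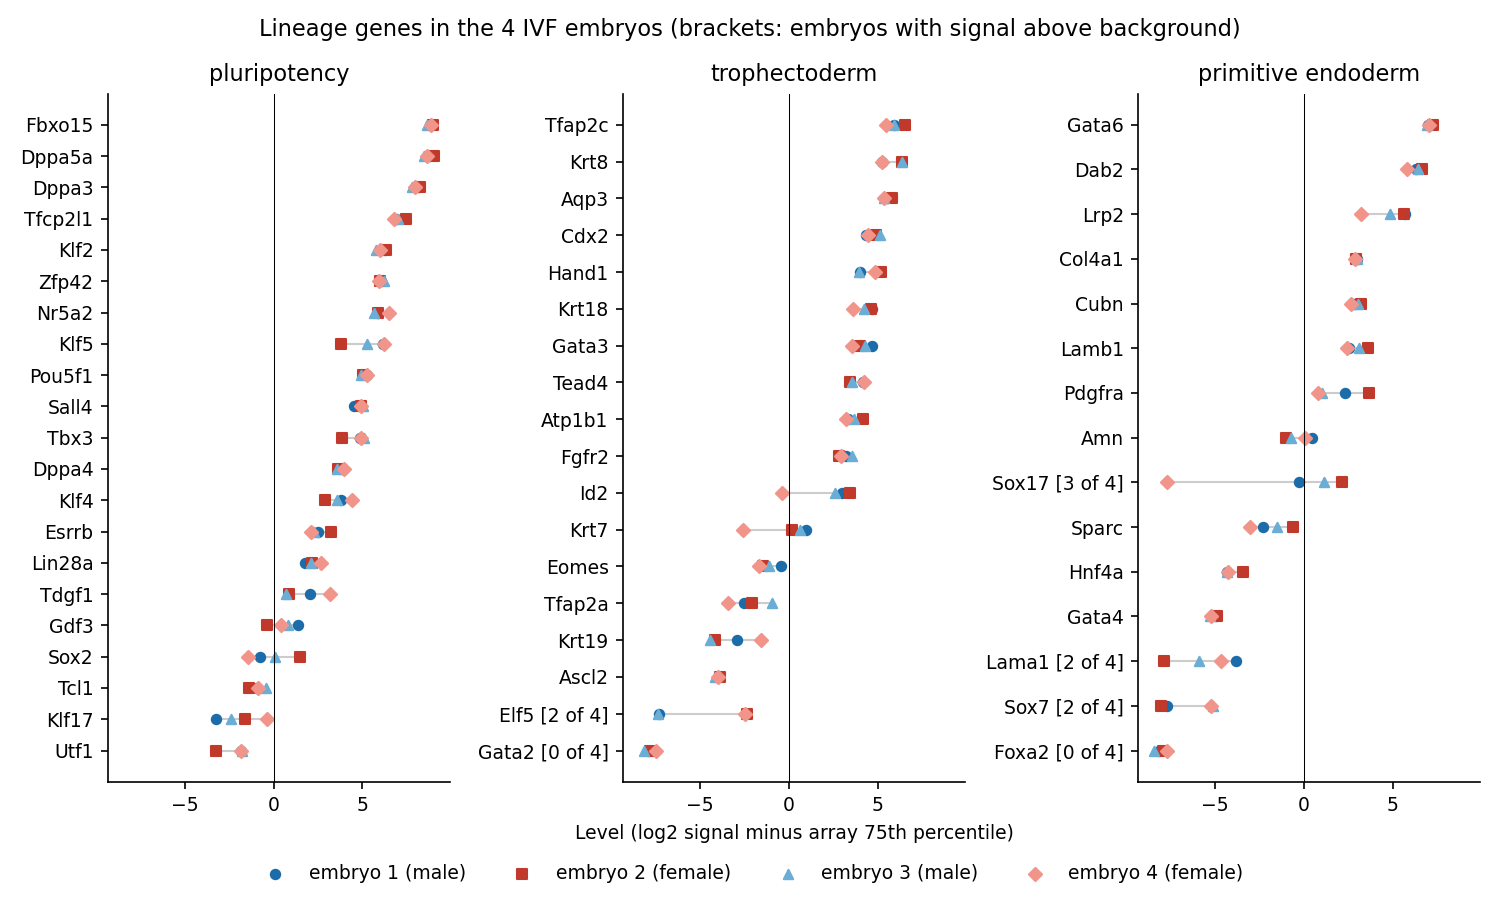
Level of autosomal genes of the pluripotency, trophectoderm and primitive endoderm lists in the 4 IVF embryos (log2 signal minus the array's 75th percentile), 1 point per embryo, with genes ordered by mean level. Brackets give the number of embryos with a signal above background where it is under 4, and points of the other embryos are background signal. Pluripotency genes lie between -3.26 and 9.03, while Gata2 and Foxa2 are at background in all 4 embryos.

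Genes that read cell position and growth factor signals were mostly present at middle levels. Of 16 autosomal Hippo pathway genes 13 were detected in all 4 embryos (median level 1.43). Tead1 was the brightest at 4.72 ± 0.33 (SD, n = 4), followed by Tead4 and by the kinase Lats2, at 3.17 ± 0.08. The co-activators Yap1 and Wwtr1 (Taz) had 1.27 ± 0.36 and 2.39 ± 0.50. Tead3 was above background in no embryo, and Amotl1 and Vgll4 were in 2 each. Amot, the X-linked angiomotin that holds YAP in the cytoplasm of inner cells, had 5.47, 5.95, 5.53 and 6.10, higher in both female embryos than in both male embryos.

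Of 23 genes of fibroblast growth factor (FGF) and ERK signalling 22 were detected in all 4 embryos (median 1.85), and Fgf4 was not analysed here for want of a named probe. Fgfr2, the receptor through which FGF4 acts on outer and primitive endoderm cells, averaged 3.13 ± 0.32, while Fgfr1 was at -4.80 ± 0.50, near the lowest detectable signal. Map2k2 and Map2k1, the kinases that activate ERK, had 3.76 ± 0.43 and 3.10 ± 0.22. The ERK phosphatase Dusp6, a target of the pathway, had 2.10, 4.97, 4.52 and 2.30 in embryos 1 to 4, and Dusp4 had 1.31, 1.42, 3.85 and 1.32. Dusp6 was high in embryos 2 and 3 and Dusp4 in embryo 3. Another target, Spry2, was even, at 1.85 ± 0.06. Fgf5, a marker of the later epiblast, was above background in embryos 1 and 4 at 0.51 and -0.51 and not in the others.

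Compaction, junction and cavitation genes were detected in all 4 embryos for 25 of 26 (median 3.37). Alpha-catenin (Ctnna1), which ties cadherins to actin, had 7.61, 8.07, 7.74 and 7.54, beta-catenin (Ctnnb1) had 7.27, 7.51, 7.10 and 6.34, and E-cadherin (Cdh1) had 4.65, 4.71, 4.93 and 4.77. E-cadherin differed between embryos by less than either catenin. The tight junction gene Cldn7 averaged 6.79 ± 0.09 (SD, n = 4), the junctional receptor F11r 5.96 ± 0.23 and ezrin (Ezr) 4.78 ± 0.36. Cldn4 and Cldn6, by contrast, had -1.26 ± 0.74 and -1.32 ± 0.97, and the desmosomal cadherin Dsc2 was above background in 1 embryo.

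Regulators of stages after implantation were rarer. Of 15 postimplantation and gastrulation genes 6 were detected in all 4 embryos (40.0%), 5 in some and 4, T (brachyury), Cer1, Foxa2 and Cdx1, in none. Goosecoid (Gsc), a homeobox gene of the gastrula organiser, was the brightest, at -0.97, 0.91, 1.01 and -0.18 in embryos 1 to 4. Otx2, an epiblast and forebrain factor, had 0.66, -0.14, 1.33 and -1.66. Embryo 3 was the highest for both. Tbx6 was at -2.77 ± 0.49, Nodal at -3.16 ± 1.38, Pou3f1 at -3.81 ± 0.53 and Lhx1 at -5.02 ± 0.15.

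Of 22 autosomal factors of later lineages 9 were detected in all 4 embryos (40.9%), 6 in some and 7 in none. The 7 were Neurod1, Neurog2, Myf5, Nkx2-5, Tbx5, Spi1 and Pdx1, regulators of neurons, muscle, heart, blood and pancreas. The kidney factor Pax2 was detected at -0.06, 0.83, 0.90 and 1.1 in embryos 1 to 4, and Isl1, a factor of heart progenitors and motor neurons, at -0.40, -1.07, -1.27 and -1.06. These were the brightest autosomal members. Runx1 and Sox1 followed at -2.53 ± 0.30 and -2.95 ± 0.56 (SD, n = 4). Neurog1, Myod1, Pax7 and Myog lay between -4.24 and -5.31.

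Of the markers of other cells that could adhere to an embryo, 11.1% to 40% of each list were detected in all 4 embryos, against 61.9% of all autosomal genes. Of 13 cumulus cell genes 3 were detected in all 4 embryos, 4 in some and 6, among them Has2, Ptgs2, Tnfaip6 and Pgr, in none. The anti-Müllerian hormone receptor Amhr2 was detected in all 4, at 1.36, 1.52, 0.92 and 2.16. Of 9 autosomal sperm and spermatid genes 3 were detected in all 4, at mean levels of -3.80 or lower, 4 in some and 2 in none. Of 9 blood and fibroblast genes 4 were detected in none, 4 in some and 1 in all 4, the globin Hba-a1 at -4.61 ± 0.14. Of 10 autosomal Sertoli cell genes 4 were detected in all 4, 2 in some and 4 in none. Sox9 was at 0.30 ± 1.97 and Dhh at 0.25 ± 0.67, while Amh and Wt1 were at background in all 4 embryos.

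Genes known from the oocyte also gave signals. Whether their RNA was left from the oocyte or made by the embryo was not tested. Of 18 autosomal oocyte and maternal-effect genes 15 were detected in all 4 embryos, with a median level of -1.57, and the list ranged from Khdc3 at 8.03 to Nobox, which was above background in no embryo. Khdc3, a member of the subcortical maternal complex, had 7.98, 8.39, 7.83 and 7.92 in embryos 1 to 4. Other members of that complex were far dimmer by their own probes, with Ooep at 0.70 ± 0.98 (SD, n = 4), Tle6 at -1.40 ± 0.33 and Nlrp5 at -3.77 ± 1.58. The growth factor Gdf9 averaged 2.20 ± 0.53, the zona pellucida gene Zp3 -0.48 ± 0.70, and the kinase Mos was above background in 1 embryo. Genes of the earlier 2-cell burst were dim, with 2 of 6 detected in all 4 embryos, Tcstv3 at -0.10 ± 0.77 and Tcstv1 at -1.70 ± 0.49.

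DNA methylation genes were detected in all 4 embryos for 11 of 12, and the missing member, Dnmt3b, was above background in each of the 3 embryos with a usable spot. The corepressor Trim28 averaged 5.44 ± 0.35 (SD, n = 4) and the cofactor Dnmt3l 4.61 ± 0.51, against 0.55 ± 0.16 for the maintenance enzyme Dnmt1. Uhrf1, which guides Dnmt1, had 2.83, 5.0, 4.69 and 3.51, and the dioxygenase Tet2 had 0.43, -0.89, 0.39 and 2.82. Uhrf1 was lowest in embryo 1, while Tet2 was highest in embryo 4.

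Glycolysis, lactate and pyruvate genes were detected in all 4 embryos for 20 of 23 (median level 1.51). Pgam1 was the brightest at 7.67 ± 0.34 (SD, n = 4), followed by the hexokinase Hk2 at 6.45 ± 0.15 and the mitochondrial pyruvate carrier Mpc2 at 6.43 ± 0.30. Lactate dehydrogenase A (Ldha) had 2.18, 0.81, 1.04 and -2.65 in embryos 1 to 4, Gapdh had 2.70, 3.44, 4.66 and 1.26, and the glucose transporter Slc2a3 had 5.55, 6.12, 5.11 and 3.64. Embryo 4 was the lowest for all 3 genes. Over the 20 detected members, the median deviation from a gene's own mean was 0.19, 0.29, 0.04 and -0.40 in embryos 1 to 4, against 0.06, 0.10, -0.06 and -0.05 over all detected autosomal genes.

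The 4 embryos resembled each other closely, and more so for bright genes. Over 10802 autosomal genes detected in all 4 embryos with 4 usable values, the median SD was 0.42, and the median ratio of the highest to the lowest embryo was 1.92-fold. The SD was above 1 for 1360 genes (12.6%) and under 0.25 for 2594 (24.0%). By quintile of level, from the dimmest, the median SD was 0.57, 0.67, 0.48, 0.35 and 0.25 in the brightest. Correlations across these genes, which are not independent replicates, were between 0.939 (embryos 2 and 4, both female) and 0.968 (embryos 2 and 3). Embryos 2 and 4 also had the largest share of genes that differed more than 2-fold, 29.1%, against 16.1% to 22.0% for the other pairs. The pair of male embryos, 1 and 3, had a correlation of 0.968 and 16.5% of genes beyond 2-fold, and the smallest median absolute difference of the 6 pairs, 0.392.

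The most even genes with a level of at least 0 were Polr1b, Mrps22, Heatr5a, Cand1, Mars1, Clptm1l, Mfsd14a, Rbm17, Immt and Rbm12b1. Polr1b, a subunit of RNA polymerase I, had 4.32, 4.29, 4.28 and 4.29 in embryos 1 to 4, Mrps22, a mitochondrial ribosomal protein, had 5.25, 5.27, 5.29 and 5.29, and Cand1, a regulator of cullin ubiquitin ligases, had 7.01, 6.98, 7.02 and 7.05. Each stayed within 0.1 over the 4 embryos. In siCont clones the SD of the same genes was 0.67, 0.41 and 0.62. The SD of the tenth and the eleventh gene in this order were both 0.038, so the place where the list ends is arbitrary.

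The even genes were chosen by their SD in the IVF embryos, so their low SD there is a description, and a higher SD in other samples follows in part from the choice. Among the 500 most even genes the median SD was 0.10 in IVF embryos, 0.50 in siCont and 0.50 in siXist clones, against 0.35, 0.62 and 0.57 over all 6522 detected genes with a level of at least 0. The even genes were also brighter, with a median level of 4.52 against 2.86. Within the brightest quintile of genes, 57% of the even genes in siCont and 50.5% in siXist clones had an SD below the median of that quintile, where all of its genes give 50% by construction. The median SD of these bright even genes was 0.505 in siXist clones, against 0.506 over the quintile, and 0.471 in siCont clones, against 0.494, and no test was made of these differences. Of 77 ribosomal protein genes 23 were among the 500 even genes, which were drawn from 6522 genes. Within the brightest quintile 305 of 2161 genes were among the 500. Ribosomal protein genes were themselves bright (median level 7.35), and whether they were more even than other bright genes was not tested.

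**Figure D4:**
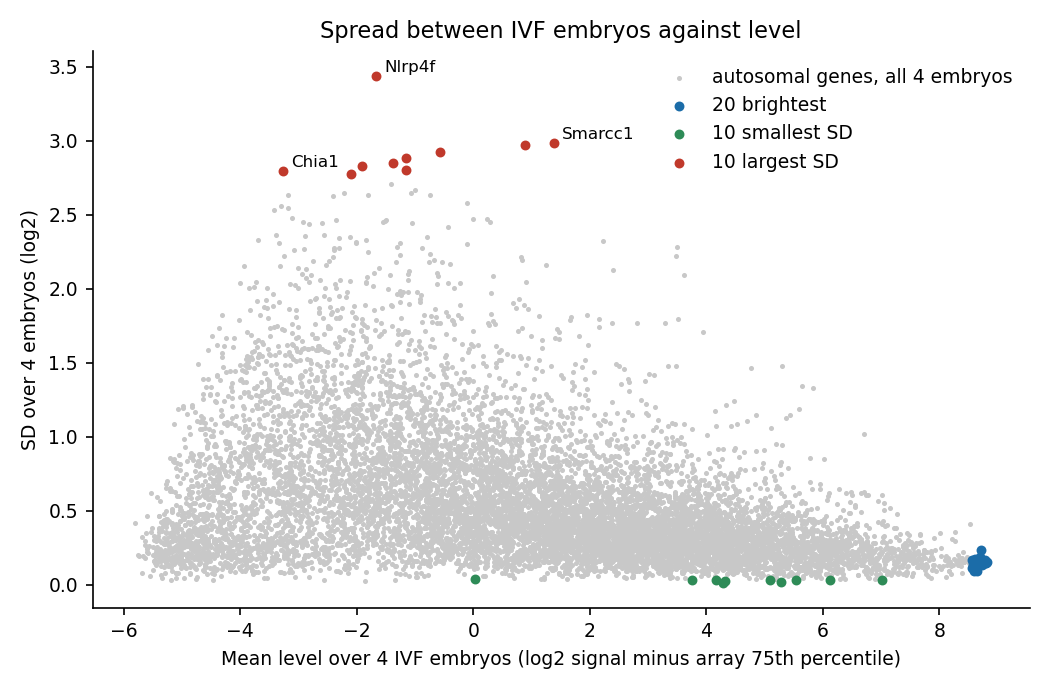
SD over the 4 IVF embryos against mean level (log2 signal minus the array's 75th percentile) for autosomal genes detected in all 4 embryos, 1 point per gene. The 20 brightest genes (blue) and the 10 genes with the smallest SD (green) lie under 0.25, and the 10 genes with the largest SD (red) lie at 2.78 or above, at middle and low levels.

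Among the 10 most uneven genes were Nlrp4f, Smarcc1, Mpp7, Zfp516, Nmral1, Tmem141, Efemp1, Chia1 and Meg3. Nlrp4f, an oocyte NLR gene, had -4.40, 0.06, 2.33 and -4.67 in embryos 1 to 4, and Smarcc1, a core subunit of the BAF chromatin remodeler, had 0.75, -2.37, 2.40 and 4.74. Meg3, a maternally expressed imprinted RNA, had -4.94, 1.37, -1.22 and -3.59. The low values of Nlrp4f and Meg3 lay near the lowest detectable signal, while Smarcc1 spanned from weak to bright. Embryo 4 was the lowest for 6 of the 10 genes. Smarcc1, Mpp7, Zfp516, Chia1 and Meg3 have other probes, and the dimmest of these averaged from -7.61 to -1.95.

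Genes often used as references were not equally even. All 15 autosomal reference genes were detected in all 4 embryos. H2az1 averaged 7.45 ± 0.19 (SD, n = 4), Ppia 5.05 ± 0.23, Tbp 2.18 ± 0.20 and Sdha 1.66 ± 0.23, while Tfrc had 6.50 ± 0.60, Ywhaz 1.72 ± 0.57 and Gapdh 3.01 ± 1.43. Beta-actin (Actb) had 0.07, 0.07, 0.05 and 0.71 by its only probe and ranked 6414, far below gamma-actin (Actg1) at 7.16 ± 0.23, and enolase 1 (Eno1) had -4.43 ± 0.77. The part of probe position and of the amplification in these ranks was not tested.

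Female and male IVF embryos were compared within their slide, in a limma fit to all 12 arrays. Of 19038 features tested, 3 were called at an adjusted p under 0.05 (0.0158% of features), 1 higher (0.00525%) and 2 lower (0.0105%) in females. They were Xist and the Y-linked Ddx3y and Eif2s3y, and 0 of 13096 autosomal genes were called, with 157 (1.20%) at an unadjusted p under 0.05. The smallest adjusted p of an autosomal gene was 0.184, for Lmod3, lower in female embryos by a difference of -3.79 ± 0.59 (SE, n = 2 each, limma). The median absolute difference between the sexes was 0.31 over autosomal genes. The spread behind this SE and these p-values was estimated from all 12 arrays, clones included. Over the same genes, the median SD was 0.71 in siCont and 0.64 in siXist clones, against 0.42 in IVF embryos. With this shared spread and 2 embryos of each sex, a gene could miss the threshold and still differ. No gene of the pluripotency, trophectoderm, primitive endoderm, Hippo or FGF lists was called.

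IVF embryos were then set against the 8 clones to show where the normal embryo stood apart. Of 19038 features 173 were called (0.909%), 84 higher (0.441%) and 89 lower (0.467%) in IVF embryos, and 115 of the calls were autosomal genes, 47 higher and 68 lower. The median difference over all features was 0.12. Of the calls, 48.6% were higher in IVF embryos, and 73.5% in the authors' table, whose scaling moved the median difference to 0.65. With a well above background signal required on at least 6 of the 12 arrays, 107 features were called, 33 higher and 74 lower (30.8% higher). The count was 56 without IVF embryo 1, 64 without embryo 3, 105 without embryo 4 and 110 without siCont clone 2. None of the 100 brightest genes, 21 pluripotency genes or 76 tested ribosomal protein genes was called, and at 0.909% of features under 1 call would fall in each of these lists, so a count of 0 is no result about them.

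Among regulators, Isl1, Gsc and Eomes were called as higher in IVF embryos, each as the only call of its list. They were 1 of 14 later lineage factors, 1 of 7 postimplantation genes and 1 of 18 trophectoderm genes tested, against 0.441% of all features. No pluripotency, primitive endoderm, Hippo or FGF gene was called. Isl1 was detected in 4 of 4 IVF embryos and 1 of 8 clones, which gives an at least 36.1-fold higher signal (clones from -8.59 to -4.94, median -7.94, limma adjusted p = 0.00443). Gsc was at least 48.2-fold higher (detected in 4 of 8 clones, limma adjusted p = 0.0128, and 0.0703 without IVF embryo 3). Eomes was at least 24.8-fold higher (2 of 8 clones, limma adjusted p = 0.0177), and this call was lost without any 1 of the 4 IVF embryos (0.0572 to 0.0864). The groups did not overlap for any of the 3 genes, as for 34 of the 47 autosomal genes called higher. A lack of overlap follows largely from being called, so it adds no separate support. A feature was tested if well above background on at least 3 arrays of a single class. Isl1 thus entered only through the IVF embryos, where it was high, and it was not tested when 6 arrays were required. Gsc and Eomes also entered only through the IVF embryos, but they were tested and kept their calls when 6 arrays were required. Each such bound compares the mean of the IVF embryos with, per clone, the higher of its own value and the lowest signal well above background on its array.

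Of the autosomal genes called higher, Tbx18 had the largest fitted difference. It is a T-box factor of the heart and kidney, and had 1.00, 0.78, 0.63 and -0.14 in IVF embryos 1 to 4. Tbx18 was detected in 1 of 8 clones, an at least 82.0-fold higher signal (limma adjusted p = 0.00771). Gml2, Wfdc15a and C8b were at least 36.0-fold, 123-fold and 28.3-fold higher (limma adjusted p = 0.000361, 0.00771 and 0.00223). The remaining named genes, Galnt4 and H2-Q1, lost their calls without 3 and 4 of the IVF embryos, in turn, in limma (adjusted p up to 0.120 and 0.184). All 6 of these genes were well above background in every IVF embryo. All 6 likewise entered the test only through the IVF arrays, where they were high. Tbx18, Gml2, C8b and Galnt4 were not tested when 6 arrays were required. Wfdc15a kept its call at that setting and H2-Q1 lost it.

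In the other direction, Meioc and Plxdc2 were at background in all 4 IVF embryos and detected in all 8 clones. Meioc, a gene of meiotic prophase, had clone levels from -1.66 to 2.31 (median 0.93), at least 118-fold above the IVF embryos (limma adjusted p = 0.000344). Plxdc2 was at least 80.5-fold lower in IVF embryos (limma adjusted p = 0.00215). Ppp1r36, Tmem54, Cyp2j6, Cd81, Axl and Aldh3b2 were also called as lower, and 5 of these 6 lost the call without some IVF embryo, Cyp2j6 being the exception. Meioc, Plxdc2 and these 6 genes except Cd81 entered the test only through the clone arrays, where they were high. Of 17 oocyte genes tested Oosp1 alone was called, against 0.467% of all features called lower. Oosp1 was lower by -1.95 ± 0.38 (SE, n = 4 against 8, limma adjusted p = 0.0449), a call that was lost without any 1 of the IVF embryos (up to 0.197).

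Glycolysis genes gave 3 calls among 22 tested, all lower in IVF embryos, against 0.467% of all features. Pfkl, a phosphofructokinase, was at least 10.7-fold lower (3 of 4 IVF embryos above background, limma adjusted p = 0.00431), and triosephosphate isomerase (Tpi1) was lower by -2.88 ± 0.38 (SE, limma adjusted p = 0.00935, and 0.0564 without IVF embryo 1). Ldha was lower by -4.34 ± 0.60 (limma adjusted p = 0.0116, and 0.0692 without IVF embryo 3), with clone levels from 4.05 to 5.47. All 4 IVF embryos lay below all 8 clones for each of the 3 genes, as for 59 of the 68 autosomal genes called lower. Such separation follows largely from the call itself, and its share over all features is not given here. The median difference over the 22 genes was -1.32, against 0.12 over all autosomal genes. That each class had its own slide and that all clones were male touches each of these differences, and their part was not tested.

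**Figure D5:**
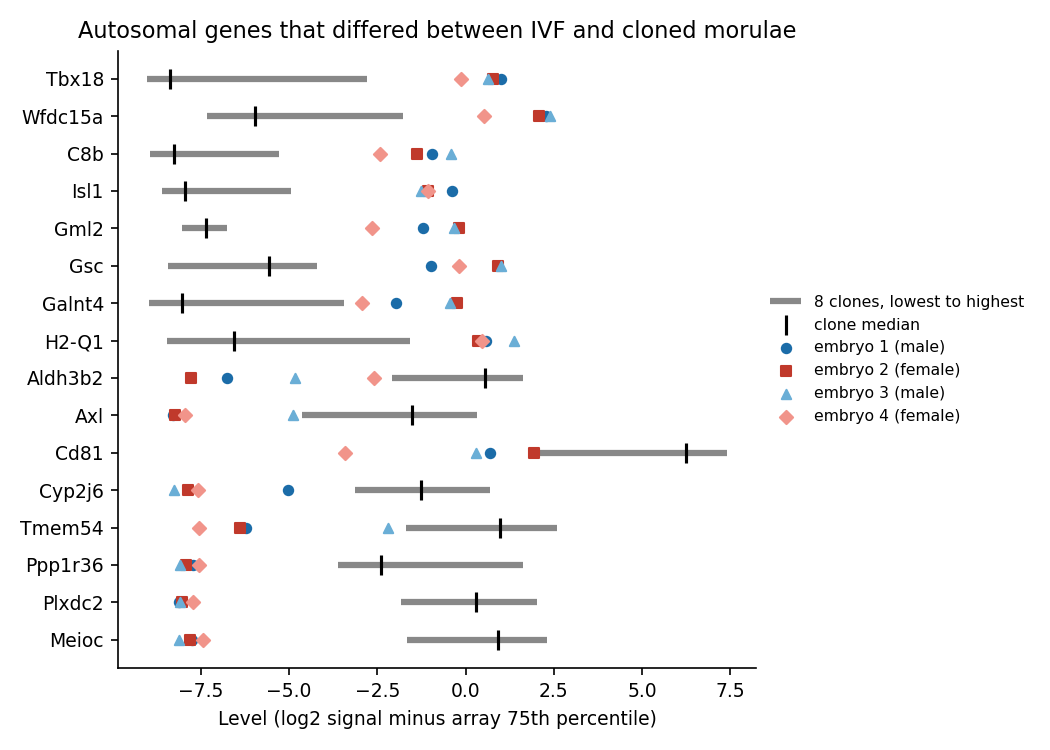
Level (log2 signal minus the array's 75th percentile) of the autosomal genes named for the comparison of IVF and cloned morulae, with the 4 IVF embryos as points, the 8 clones as a bar from lowest to highest and a tick at their median. Values under about -6 are background signal. The 16 genes were chosen among calls whose groups did not overlap. The IVF embryos thus lie outside the range of the clones for all of them by that choice.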

How the data were processed

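Each of the 12 samples was RNA of 1 embryo, extracted with TRIzol, amplified in 2 rounds and hybridised in Cy3 to a 1-colour Agilent array, per the labels' protocols. The deposited scanner files came from Agilent Feature Extraction 10.5.1.1 with a probe grid on mm9, per the file headers. Their processed signals are intensity values on a linear scale, already corrected for background, per the file headers. The deposited value table of the authors holds log2 values of the same arrays, centred on each probe's median, whose constant per array is not given in the sources used here. It was used as an alternative. Accessions of the scanner files matched 1 gene in RefSeq's GRCm38.p6 table for 26888 of 41174 probes (65.3%), which gave 18327 genes, 17648 of them autosomal.

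Control and outlier spots were left out, spots of a probe averaged, and log2 signals set relative to the array's 75th percentile. Gene level, detection and promoter density are as defined in the text. Differences were tested with limma 3.58.1 in R 4.3.3, two-sided, over all 12 arrays with the groups IVF male, IVF female, siCont and siXist. Probes were kept if well above background on at least 3 arrays of a single class (IVF, siCont or siXist). Benjamini-Hochberg adjustment at 0.05 was over all features. On simulated data the fit was checked for recovery of known changes. The spread between samples is that between embryos of a class, and it may include amplification and array error. Promoters came from RefSeq on GRCm38.p6. Summaries used Python 3.11.15, pandas 2.3.3 and matplotlib 3.10.9.

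Genes named are the 20 brightest, the 10 with the smallest SD at a level of at least 0, the 10 with the largest SD, up to 8 autosomal genes called each way by size whose groups did not overlap, each member of the pluripotency, trophectoderm and primitive endoderm lists, and up to 4 of each other list by brightness, spread or detection, with further list members chosen after their values were seen. The members and the lists were chosen with earlier results of these data known. Alternatives were quantile normalization, normexp correction (offset 50), the authors' table, other filters and probe rules, a replicate block and leaving out each array. The replicate numbers do not pair the samples. Some genes that these rules name are not reported here.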

Additional observations from a re-analysis of the deposited data

Results flagged for a closer look

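Of 139 groups of 4 IVF levels examined by Dixon's test, 6 (4.32%) had 1 embryo apart from the others, and chance gives about 1 in 20. Utf1, a chromatin factor of pluripotent cells, had -3.24 in embryo 2 against -1.86 to -1.80 in the other embryos. Hnf4a, a nuclear receptor of visceral endoderm and liver, had -3.44 in embryo 2 against -4.33 to -4.28. Snx5, a sorting nexin among the 20 brightest genes, had 8.80 in embryo 2 against 8.45 to 8.49. Embryo 2 was thus the one apart for these genes, below the others for Utf1 and above them for Hnf4a and Snx5. It was also highest for 87 of the 100 brightest genes (median deviation 0.19), so a high value there is not particular to Snx5.

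Wfdc15a, which was higher in IVF embryos than in clones, had 0.51 in embryo 4 against 2.07 to 2.39. Axl, a receptor tyrosine kinase that was lower in IVF embryos than in clones, had -4.88 in embryo 3 and was not well above background in the others. Rbm12b1, one of the 10 most even genes, had 0.09 in embryo 1 against 0.01 in each of the others, a gap that is large only beside the small spread of that gene.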

How the results depend on the processing

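No called difference of a named gene changed sign under an alternative in which it was tested. With the scanner's positive-and-significant flag in place of the stricter one, 1065 autosomal genes instead of 3386 were undetected in all 4 embryos. With that flag 13470 genes instead of 10922 were detected in all 4, and 8893 when every probe of a gene had to be detected by the stricter flag. Without each embryo in turn the counts were 11004 to 11480 detected in all and 3606 to 3861 in none, 30 to 34 ribosomal protein genes among the 100 brightest, and a median SD of 0.359 to 0.421. The detection counts can only rise when an embryo is left out. The median SD was 0.359 to 0.597 under other scalings. Of 93 named levels, 35 moved by more than their SD with the mean of all probes, 38 with normexp and 15 with quantile normalization, and none without 1 embryo. For female against male, 5 features were called by limma with normexp, 23 with no filter and 0 with the 4 IVF arrays alone (667 at an unadjusted p under 0.05), and 3 to 7 without each array in turn. For IVF embryos against clones, limma called 98 features in the authors' table, 107 with the stricter filter and 56 to 177 without each array in turn. In the authors' table the median female minus male difference was -0.67, against 0.03 in the main setting and -0.01 with quantile normalization. The median difference between IVF embryos and clones was -0.04 with normexp, against 0.12. Isl1, Tbx18, Gml2, C8b and Galnt4 could not be tested with the stricter filter.

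The replicate numbers do not pair the samples (correlations of deviations from -0.153 to 0.064), and with a replicate block limma called 47 features between IVF embryos and clones and 2 between the sexes. Calls lost under a setting were those of Cd81 in 16 settings, H2-Q1 and Oosp1 in 14, Axl in 12, Tmem54 in 11, Aldh3b2 and Ppp1r36 in 6, Eomes in 4, Galnt4 and Tpi1 in 3, Gsc and Ldha in 2 and Cyp2j6 in 1, while C8b, Gml2, Isl1, Meioc, Pfkl, Plxdc2, Tbx18 and Wfdc15a kept theirs in those run. The cause was not tested. Signals near background limit what can be said of dim genes, and with 2 embryos of each sex even large differences can miss the threshold. In simulated data of the IVF and clone comparison, the fit found 49 of 100 genes changed by a log2 of 2 and 78 of 100 changed by 4. The simulation gave each gene the same normal spread on all arrays and no background floor. In the data, the SD exceeded that of IVF embryos for 79.5% of genes in siCont and 73.2% in siXist clones. Of 47 autosomal genes called higher, 37 were dim on some clone arrays, so recovery in the data may differ.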

Other observations

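Embryo 4 stood apart from the other IVF embryos for more genes than any other, lying more than 1 below the next lowest for 620 autosomal genes, against 197, 362 and 161 for embryos 1, 2 and 3. Genes of protein folding in the endoplasmic reticulum were among them. Hspa5 (BiP), the main chaperone of that compartment, had 7.14, 7.66, 6.77 and 5.29 in embryos 1 to 4, and Herpud1, part of its degradation machinery, had 1.51, 2.77, 1.14 and -1.65. Hsp90b1 and Calr were likewise lowest in embryo 4, at 3.94 and 2.75. Of 16 such genes detected in all 4 embryos, 9 were lowest in embryo 4, which was the lowest for 32.8% of all detected autosomal genes, and the median deviation from a gene's own mean was 0.30, 0.52, -0.12 and -0.54. Dnajb9 and Hyou1, of the same set, were highest in embryo 4, at 4.61 and 2.60.

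Among 23 replication-dependent histone genes detected in all 4 embryos, embryo 4 was highest for 9 and lowest for 5, with a median deviation of -0.01, and embryo 2 was highest for 11. Embryo 4 was the highest for 7 genes of histone H2A, while H2ac4 and H2ac8 were lowest in it, at -4.90 and -4.05. H2ac23 had 2.55, 1.74, 2.89 and 6.73 in embryos 1 to 4, and H2ac1 had 4.68, 4.55, 4.46 and 6.20. The histone H3 genes H3c14 and H3c4 stayed at 6.24 to 6.32 and 5.72 to 5.87. These histone genes are near-identical copies, so a probe may read several of them and the values of single copies are uncertain. Both sets were picked after their values had been seen, and no test was made.

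Unnamed probes, 14286 in all, were well above background in all 4 IVF embryos for 3630 (25.4%), against 57.3% of named probes.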
